A study of Mus musculus with 6 samples.

Results

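Fibro-adipogenic progenitors are mesenchymal cells that lie between muscle fibres, carry the receptor PDGFRα on their surface and can become fibroblasts or fat cells. They secrete much of the matrix of muscle and help the muscle stem cells after injury. The 10 genes described here are used as their markers in muscle: Pdgfra, Cxcl14, Smoc2, Dpt, Gsn, Mfap5, Dpp4, Pi16, Ly6a and Cd34. They were taken by gene symbol, with every probe set that the platform annotation names to them. Each probe set pools several short probes against 1 transcript or a group of similar ones. This gave 23 of the 45037 probe sets tested and covered 9 genes. Ly6a had no probe set named to it in the annotation used and was not analysed here.

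The arrays (Affymetrix GeneChip Mouse Genome 430 2.0) held total RNA from muscle of 3 mice labelled SIRT6KO and 3 labelled wild type, called KO and WT below, all with 129SvJ as strain background. SIRT6 is a NAD-dependent deacylase that works on chromatin. The sources used here do not say which muscle was taken, how old the mice were, of which sex, or which part of the gene was removed. The comparison asks which transcripts of these cells differ between KO and WT muscle.

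The only probe set named to Sirt6, 1429631_at, read 22.6, 18.3 and 13.7 in KO and 23.2, 15.1 and 21.3 in WT, so it did not separate the groups, and whether it lies in the deleted part is not known. Xist, the RNA of the inactive X chromosome, read 715.4 to 1165.7 in KO and 24.5 to 31.3 in WT at 1436936_s_at. Sex and genotype therefore cannot be told apart in any difference below. The median intensity of an array was 11.0 to 13.5 in KO and 10.8 to 15.0 in WT. Transcripts added as hybridization controls were 1.93 times as bright in WT replicate 1 as in WT replicate 2, against 0.975 to 1.02 times in the other arrays. Markers of muscle fibres (Acta1, Ckm, Myh4, Tnnt3 and Mb) summed to 39976.8 to 41358.9 in KO and 39463.6 to 65641.3 in WT. In bulk muscle, fewer progenitors and less RNA per progenitor cannot be told apart.

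The progenitor genes divided by gene. Cxcl14, Smoc2 and Dpt, all of which encode secreted proteins, read lower in every KO array than in any WT array, at each of their 5 probe sets, with means 1.80-fold to 2.60-fold lower. Pdgfra, the receptor that defines the cells, and Mfap5, whose protein is secreted too, did not share this pattern. On the same scale they were 1.19-fold to 1.37-fold higher in KO at 4 of their 5 probe sets. Cd34 and Pi16 were far below WT in KO replicate 3 only, and Gsn and Dpp4 overlapped between the groups at all but 1 dim Dpp4 probe set. None of the 23 probe sets passed limma's test with adjustment over all probe sets at 0.05, where 0.00888% of all probe sets did. At an unadjusted p under 0.05, 5 of the 23 were lower and 1 was higher, against 4.99% and 3.57% of all probe sets.

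All KO arrays lay below all WT arrays in 5 of the 23 probe sets, against 7.29% of all probe sets, and above them in 2, against 5.02%. Taking for each gene its probe set with the highest mean level, this was 3 of 9 genes below, against 8.33% of 18193 genes, and 0 above, against 4.51%. The members were chosen with earlier results of these data known, so these shares are no test of them. The median log2 fold change of these 9 probe sets, KO over WT, was -0.41, beside -0.02 over all genes, and it was -0.14 without KO replicate 3. Over all 23 probe sets the median was -0.13, and with each gene taken as the mean of its probe sets it was -0.25. Fold changes are on the log2(intensity + 16) scale throughout, which understates the change of dim probe sets.

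**Figure D1:**
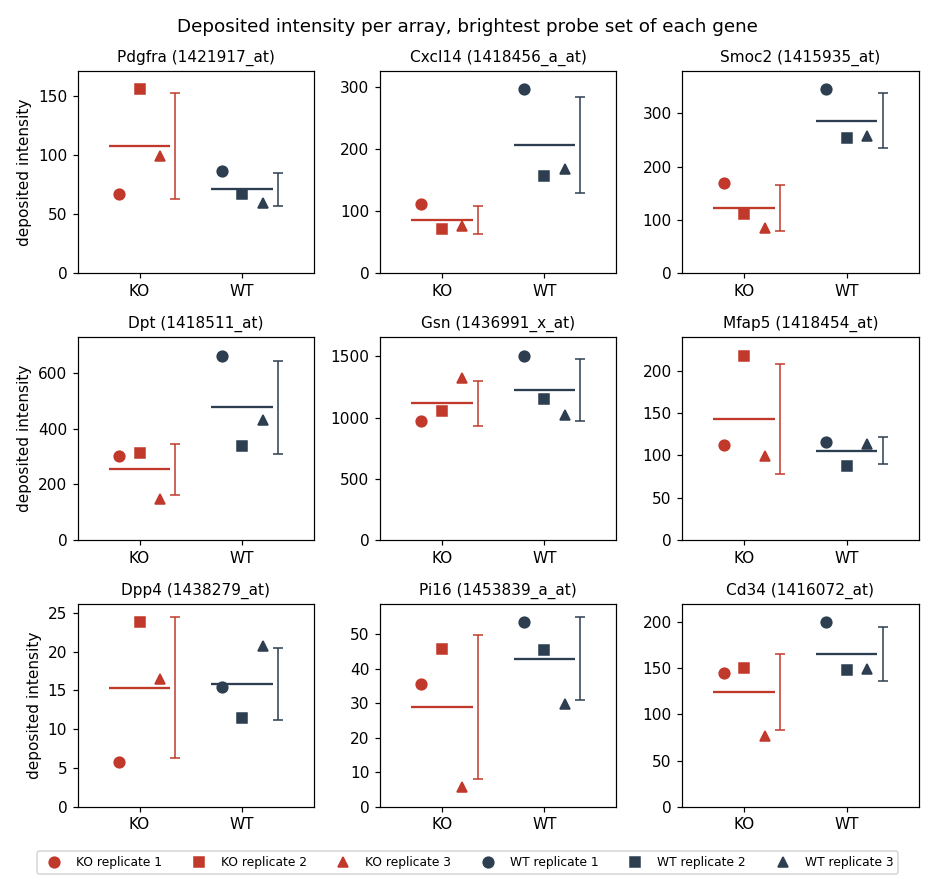
Deposited intensity (vertical axis, linear, from 0) of the brightest probe set of each of the 9 genes in the 3 KO arrays (red) and the 3 WT arrays (dark). Horizontal bars are group means, error bars the SD, and marker shapes the replicate numbers. Cxcl14, Smoc2 and Dpt have all KO points below all WT points, while the other 6 genes overlap.

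Among the secreted proteins, Cxcl14 encodes a chemokine of the CXC family. Its probe set 1418456_a_at read 111.9, 71.6 and 75.6 in KO replicates 1, 2 and 3, against 296.0, 155.9 and 167.6 in WT replicates 1, 2 and 3. The brightest KO array was thus below the dimmest WT array. The mean was 86.4 ± 22.2 in KO and 206.5 ± 77.7 in WT (SD, n = 3 each), 2.12-fold lower with a 95% interval of the fold change from 0.302 to 0.734 (limma adjusted p = 0.524).

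The other Cxcl14 probe set, 1418457_at, read 27.3, 22.3 and 13.7 in KO, against 106.5, 59.4 and 78.1 in WT. Here too no KO array reached any WT array. It was 2.60-fold lower, with an interval of the fold change from 0.265 to 0.557, and had the lowest p of the 23 (unadjusted p = 0.000544 and adjusted p = 0.383 by limma), rank 64 among the 45037. When limma was fitted only to the 22518 probe sets above the median level, of which 17 belong to these genes, it was the 1 member called (adjusted p = 0.0316), where 0.351% of all those probe sets were called. That call was lost with quantile normalization (adjusted p = 0.0631) and when 1 of 3 arrays was left out, with an adjusted p of 0.173 without KO replicate 2, of 0.357 without WT replicate 1 and of 0.189 without WT replicate 3.

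Smoc2 encodes a calcium-binding protein of the matrix related to SPARC. At probe set 1415935_at it read 169.3, 110.6 and 85.4 in KO, against 344.7, 254.3 and 257.8 in WT. Every KO array was below every WT array, and KO replicate 1 was the nearest to WT. The mean was 122 ± 43.1 in KO and 286 ± 51.2 in WT (SD, n = 3 each), 2.24-fold lower with an interval from 0.298 to 0.670 (limma adjusted p = 0.511). Probe set 1431362_a_at read 74.8, 39.4 and 27.1 in KO, against 90.4, 102.5 and 84.3 in WT, a level 1.80-fold lower (limma adjusted p = 0.540). Both probe sets put the KO arrays in the same order, with replicate 3 dimmest, although under quantile normalization the second one overlapped between the groups.

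The count of members called by the filtered test changed with most single arrays, which were left out after seeing the data. Without KO replicate 1 it called 4 members, both probe sets of Cxcl14 and both of Smoc2, with limma adjusted p-values from 0.00168 to 0.00973. Without KO replicate 3 it called 3, both of Cxcl14 and Smoc2 1415935_at, with limma adjusted p-values from 0.00262 to 0.0472. It called 1 without WT replicate 2, and 0 without KO replicate 2, WT replicate 1 or WT replicate 3. The share of all probe sets called in these fits was not counted, so the member counts have no background beside them.

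Dpt encodes dermatopontin, a small matrix protein that binds decorin and takes part in collagen fibril assembly. Its single probe set, 1418511_at, read 303.0, 312.6 and 147.9 in KO, against 663.0, 338.0 and 432.4 in WT. The groups did not overlap, but KO replicate 2 and WT replicate 2 were close. The mean was 254.5 ± 92.4 in KO and 478 ± 167 in WT (SD, n = 3 each), 1.84-fold lower with an interval from 0.307 to 0.959 (limma adjusted p = 0.572).

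The proximal promoters of Cxcl14 and Dpt are shown because these 2 genes were lower in every KO array and have an entry in the RefSeq promoter table (build GRCm38.p6), as do 7 of the 10 genes. Each is the 250 bases before the annotated start, 5′ to 3′ along the gene's strand, with CpG dinucleotides in capitals. The Cxcl14 window is chr13:56296552-56296801 on the minus strand and the Dpt window chr1:164796413-164796662 on the plus strand.
Cxcl14: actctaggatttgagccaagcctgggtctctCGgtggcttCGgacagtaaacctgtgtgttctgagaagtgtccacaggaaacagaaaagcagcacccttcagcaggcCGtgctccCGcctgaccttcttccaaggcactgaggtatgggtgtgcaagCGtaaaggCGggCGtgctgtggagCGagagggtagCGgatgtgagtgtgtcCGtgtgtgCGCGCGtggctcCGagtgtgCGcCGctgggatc
Dpt: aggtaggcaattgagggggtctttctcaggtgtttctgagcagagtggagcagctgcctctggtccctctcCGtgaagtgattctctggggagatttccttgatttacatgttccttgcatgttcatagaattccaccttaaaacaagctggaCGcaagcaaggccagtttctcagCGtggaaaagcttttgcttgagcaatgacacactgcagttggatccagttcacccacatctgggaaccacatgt

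The promoters differ in base content. The Cxcl14 window holds 16 CpG dinucleotides and 59.6% G and C, and the Dpt window holds 3 and 48.8%, beside medians of 6 and 52.4% over all 32851 promoter windows. In both strands of either window, no match was found to the TATA box (TATAAA), the NF-Y motif (CCAAT), the GC box (GGGCGG), the AP-1 motif (TGANTCA) or the TEAD motif (GGAATG). None of these motifs contains another, and in this order they occur in 12.4%, 33.8%, 32.7%, 6.75% and 12.6% of all windows. Among the other members, the windows of Pdgfra and Cd34 hold none of them either, and that of Dpp4 holds 1 TATA box and 1 TEAD motif. That of Pi16 holds 1 NF-Y motif, and the 3 windows of Gsn hold 2, 1 and 1 GC boxes and 0, 1 and 3 NF-Y motifs.

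**Figure D2:**
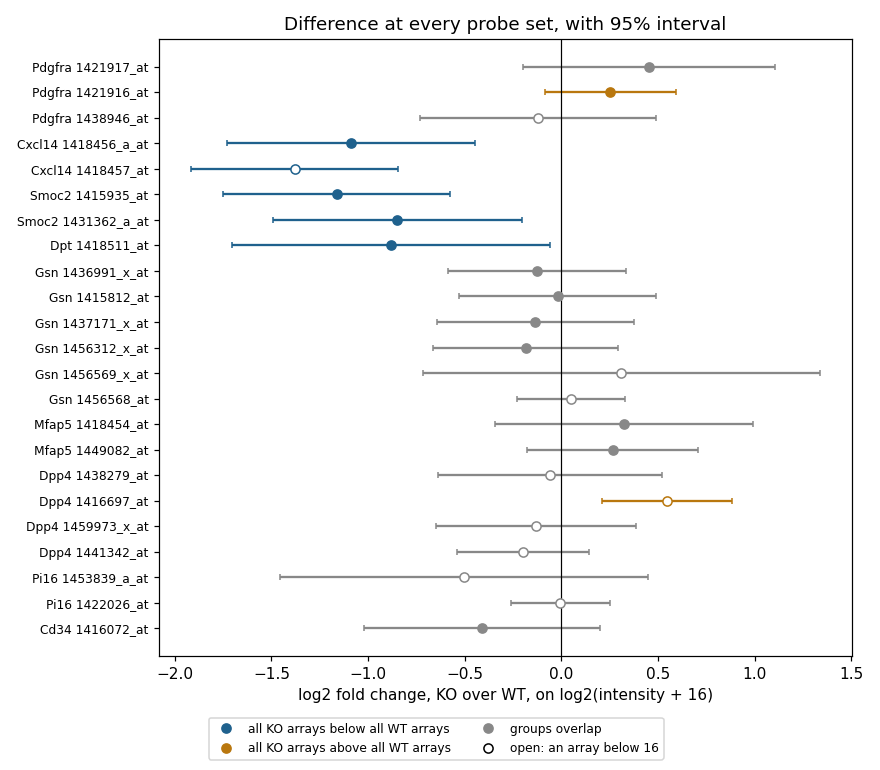
Log2 fold change, KO over WT, of each of the 23 probe sets (points, horizontal axis) with the 95% interval from limma. Blue points have all KO arrays below all WT arrays, orange ones all KO arrays above, grey ones overlap, and open points had at least 1 array below the offset of 16. The 5 blue points belong to Cxcl14, Smoc2 and Dpt.

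Among the surface proteins, Pdgfra encodes the receptor for PDGF that sorts these cells from others in muscle. Its brightest probe set, 1421917_at, read 67.5, 155.6 and 99.6 in KO, against 86.7, 67.1 and 59.4 in WT. KO replicates 2 and 3 were above all WT arrays and KO replicate 1 was among them. The level was 1.37-fold higher in KO with an interval from 0.872 to 2.15 (limma adjusted p = 0.691). Its log2 fold change of 0.45 was 0.19 without KO replicate 2 and 0.71 without KO replicate 1. Probe set 1421916_at read 29.7, 42.7 and 31.3 in KO, against 25.4, 24.5 and 28.8 in WT, with the groups just apart (1.19-fold higher, limma adjusted p = 0.669). After quantile normalization, instead, all KO arrays were above all WT arrays at 1421917_at, against 8.54% of all probe sets, and 1421916_at overlapped. The remaining probe set, 1438946_at, was at or below 16.2 on every array, too dim to compare.

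Cd34 encodes a sialomucin found on these progenitors and on endothelial cells. Its probe set 1416072_at read 145.3, 150.8 and 76.8 in KO, against 199.9, 148.4 and 149.4 in WT. KO replicates 1 and 2 were close to WT replicates 2 and 3, and KO replicate 3 stood apart below them. The log2 fold change was -0.41 (limma adjusted p = 0.701), and -0.14 without KO replicate 3. Endothelial markers did not go the same way: 6 of 7 were higher on average in KO, none had separate groups as deposited, and their sum ranged from 588.2 to 899.1 in KO and from 533.9 to 666.6 in WT. With median centring or quantile normalization 1 of them, Cldn5, was higher in every KO array, against 7.28% and 8.82% of all genes.

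Dpp4, a membrane peptidase, and Pi16, a peptidase inhibitor, mark together the progenitors that lie near vessels and in the connective tissue sheaths. Pi16 read 35.5, 45.8 and 5.6 in KO at 1453839_a_at, against 53.5, 45.4 and 29.9 in WT. Only KO replicate 3 lay outside the WT range, and the log2 fold change of -0.50 (limma adjusted p = 0.777) was -0.04 without it. The second Pi16 probe set, 1422026_at, was at 1.1 to 1.4 on all 6 arrays.

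Dpp4 was dim. Its 4 probe sets read 0.2 to 23.8 in KO and 1.0 to 20.7 in WT. Probe set 1416697_at was higher in every KO array, at 6.8, 13.2 and 12.9 against 2.8, 1.6 and 2.7 in WT (limma adjusted p = 0.524), all below the offset of 16. The brightest, 1438279_at, read 5.7, 23.8 and 16.5 in KO, against 15.4, 11.5 and 20.7 in WT. The other Dpp4 probe sets had lower means in KO, with overlapping groups, so the gene had no single direction.

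The remaining members are Mfap5 and Gsn. Mfap5 encodes a glycoprotein of the microfibrils that carry elastic fibres. At 1418454_at it read 111.7, 217.7 and 99.8 in KO, against 115.8, 87.1 and 113.4 in WT, so that KO replicate 2 alone stood above the rest. The level was 1.25-fold higher with an interval from 0.789 to 1.99 (limma adjusted p = 0.801), and its log2 fold change of 0.32 was 0.01 without that array. The other probe set, 1449082_at, read 89.6, 113.9 and 68.0 in KO, against 81.1, 64.8 and 68.7 in WT, again with KO replicate 2 highest.

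Gsn encodes gelsolin, which severs actin filaments and also has a secreted form, and it is made by many cell types. Its brightest probe set, 1436991_x_at, read 975.5, 1050.6 and 1321.7 in KO, against 1504.3, 1151.7 and 1018.6 in WT, with fully overlapping ranges. The fold was 0.917 with an interval from 0.666 to 1.26 (limma adjusted p = 0.907). Probe sets 1415812_at, 1437171_x_at and 1456312_x_at read 656.2 to 1370.2 in KO and 652.9 to 1433.2 in WT, each with overlap and with folds of 0.879 to 0.986. After quantile normalization 1456312_x_at was lower in every KO array, against 8.43% of all probe sets. Among WT arrays replicate 1 was the highest at all of these Gsn probe sets. The ending _x_at marks probe sets in which some probes can also bind other transcripts. The last pair, 1456569_x_at and 1456568_at, reached 42.3 at most.

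**Figure D3:**
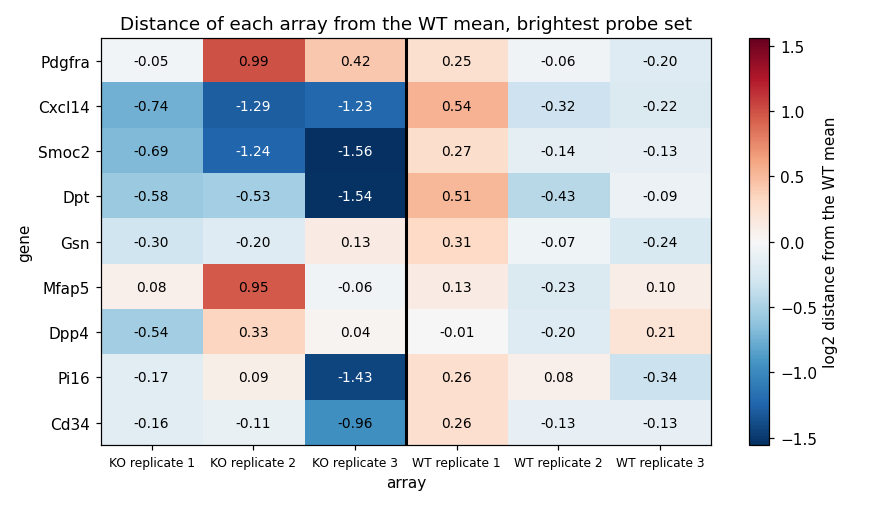
Log2 distance of each array (columns, KO left of the black line) from the WT mean for the brightest probe set of each gene (rows). Cxcl14, Smoc2 and Dpt are below 0 in all 3 KO arrays, from -0.53 to -1.56, while Pi16 and Cd34 are far below 0 in KO replicate 3 only (-1.43 and -0.96) and Pdgfra and Mfap5 are highest in KO replicate 2 (0.99 and 0.95).

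The KO arrays were not alike. The median distance of the 9 genes from the WT mean was -0.30, -0.11 and -0.96 on the log2 scale in KO replicates 1, 2 and 3, and 0.26, -0.14 and -0.13 in WT replicates 1, 2 and 3. KO replicate 3 had the lowest value of all 6 arrays in 4 of 9 genes, and WT replicate 1, the array with bright hybridization controls, the highest in 6. The part of that array difference in the results was not tested. Over all genes the median distances were -0.10, 0.03 and -0.01 in KO and 0.15, -0.0017 and -0.14 in WT. Such medians rest largely on dim values, as 51.71% to 60.34% of the probe sets of an array read below 16. Bright genes differed more: the muscle fibre markers summed to 65641.3 in WT replicate 1, against 39463.6 to 41358.9 in the other arrays. KO replicate 2 combined the highest Pdgfra and Mfap5 with low Cxcl14 and Smoc2. The brightest probe sets of Cxcl14, Smoc2 and Dpt stayed apart between the groups after centring each array on its median and after quantile normalization. Centring shifts an array by its median alone, so it need not remove a difference that is larger among bright genes.

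PDGF ligands and the other receptor, which share the pathway of Pdgfra, overlapped between the groups as deposited. Of the 5 genes 0 passed in either direction and 0 had an unadjusted p under 0.05. Pdgfrb, the receptor of pericytes and also of fibroblasts, read 58.1, 112.9 and 104.8 in KO, against 72.8, 59.1 and 51.3 in WT. As with Pdgfra, KO replicates 2 and 3 were above WT (1.37-fold higher, limma adjusted p = 0.649). After quantile normalization all KO arrays were above all WT arrays, against 8.82% of all genes. Pdgfc, a ligand of PDGFRα, read 12.2 ± 1.85 in KO and 15.8 ± 7.93 in WT, and Pdgfb 56.8 ± 31.2 in KO and 60.5 ± 3.46 in WT (SD, n = 3 each).

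Other fibroblast and progenitor genes, from a list that does not hold the 10 members, mostly read lower in KO. This list was chosen with earlier results of these data known, so its counts are not independent support. The shares of all genes beside them are a description and no test. Of 15 measured genes 0 passed limma's test over all probe sets, 6 were lower and 0 higher at an unadjusted p under 0.05, against 6.28% and 3.52% of all genes, and 8 had all KO arrays below all WT arrays, against 8.33% of all genes. That number was 7 with median centring and 5 with quantile normalization, against 8.67% and 10.3% of all genes. The median log2 fold change was -0.50. Serpinf1, which encodes the secreted factor PEDF, read 230.0, 220.9 and 118.5 in KO, against 586.3, 309.0 and 417.8 in WT, 2.21-fold lower (limma adjusted p = 0.524).

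Pcolce, which helps to cut the C-terminal propeptide from procollagen, read 176.1, 148.2 and 59.4 in KO, against 422.3, 246.2 and 281.9 in WT. Fap, a surface peptidase of fibroblasts, read 53.0, 52.1 and 31.2 in KO, against 104.8, 66.3 and 81.7 in WT. These were 2.43-fold and 1.64-fold lower (limma adjusted p = 0.529 for each). The other 5 with separate groups, named after their values were seen, were Lum, Thy1, Twist2, Fn1 and Hic1. Dcn and Vim, also named after their values were seen, overlapped between the groups. Dcn, the decorin gene, read 1065 ± 259 in KO and 1213 ± 165 in WT (SD, n = 3 each), and Vim, the vimentin gene, 554 ± 286 in KO and 502 ± 81.7 in WT.

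**Figure D4:**
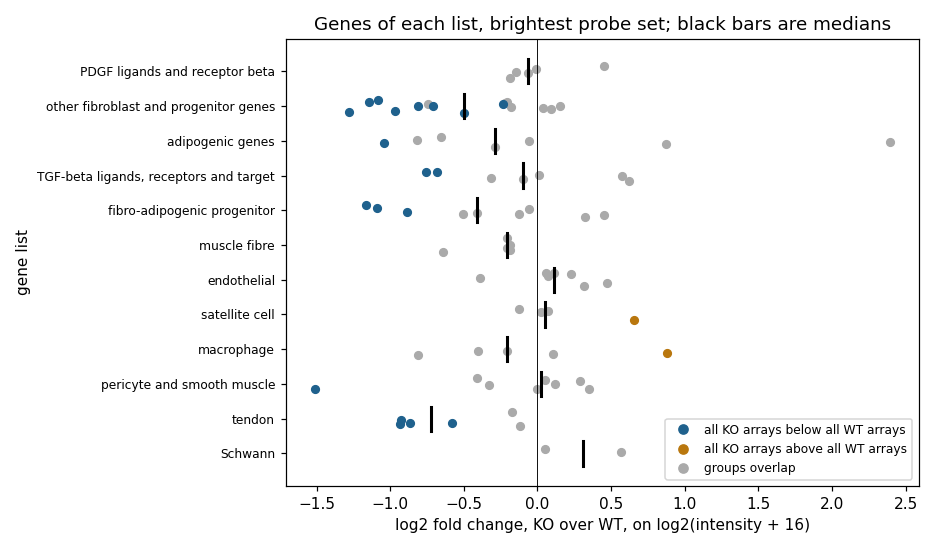
Log2 fold change, KO over WT, of every measured gene (points, horizontal axis) in each gene list (rows), with the list median as a black bar. Blue points have all KO arrays below all WT arrays and orange ones all above. The lists with the lowest medians are tendon (-0.72), other fibroblast and progenitor genes (-0.50) and the fibro-adipogenic progenitor genes (-0.41).

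Tendon cells also make Dpt and other matrix genes. All 6 tendon markers had lower means in KO, 4 of them (Thbs4, Fmod, Tnmd and Comp) with all KO arrays below all WT arrays, against 8.33% of all genes, and Mkx was below 16 on every array. Their sum was 302.8 to 364.8 in KO and 412.6 to 856.4 in WT. After quantile normalization the groups stayed apart in 2 of them, against 10.3% of all genes. No tendon marker passed limma's test over all probe sets. The tendon list too was chosen with earlier results of these data known. The part of tendon or sheath tissue in the values of Cxcl14, Smoc2 and Dpt was not tested.

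The genes of the 2 fates of the progenitors varied by gene. Of 7 adipogenic genes 0 passed, and 2 were lower and 1 higher at an unadjusted p under 0.05, against 6.28% and 3.52% of all genes. Cebpa, a transcription factor of fat cell formation, read 60.1, 91.9 and 87.9 in KO, against 263.7, 138.6 and 156.1 in WT. It was lower in every KO array, as were 8.33% of all genes (2.06-fold lower, limma adjusted p = 0.524). Cebpd, a factor that acts early in that process and also responds to stress hormones, read 172.8, 657.1 and 2006.7 in KO, against 192.8, 138.3 and 39.2 in WT (limma adjusted p = 0.564). KO replicate 1 lay within the WT range there. After median centring and after quantile normalization all KO arrays were above all WT arrays, against 7.28% and 8.82% of all genes. Zfp423, which commits cells to the fat lineage, read 16.5, 0.7 and 1.0 in KO, against 33.3, 17.2 and 15.0 in WT.

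Of 7 genes of TGF-beta signalling, which drives fibrosis, 0 passed, and 2 ligands had all KO arrays below all WT arrays, against 8.33% of all genes. Tgfb3 read 54.3, 40.9 and 33.4 in KO, against 102.5, 76.9 and 57.9 in WT, and Tgfb2 read 27.3, 35.5 and 12.1 in KO, against 71.4, 47.2 and 38.8 in WT. They were 1.60-fold and 1.69-fold lower (limma adjusted p = 0.541 and 0.564). Tgfbr1, a receptor, was 1.49-fold higher with overlap (limma adjusted p = 0.611). With median centring or quantile normalization Tgfb1 was also lower in every KO array, against 8.67% and 10.3% of all genes. With quantile normalization Tgfbr1 and Tgfbr3 were higher in every KO array, against 8.82% of all genes.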

How the data were processed

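The deposited table gives a linear intensity for each probe set on each array. Per the labels' protocols, RNA was extracted with TriPure and biotin-labelled by the Affymetrix protocol. The sources used here name no software or scaling behind the values and no batch or scan date. After leaving out 64 control probe sets, log2(intensity + 16) was compared between KO and WT with limma 3.58.1 in R 4.3.3 (lmFit and eBayes, two-sided) over 45037 probe sets, with Benjamini-Hochberg adjustment and a threshold of 0.05. The test was tried on simulated data with known changes. Intervals are at the 95% level. The number of arrays limits the precision. Symbols came from the platform annotation, updated through gene IDs to RefSeq. All members with every probe set are named. From each pathway list the 3 genes with the lowest p are named. Members and lists were chosen with earlier results of these data known. P-values set the group difference against the spread between these 3 mice per group, which limma moderates with the spread over all probe sets. Nothing in the sources used here says that equal replicate numbers pair the mice, so they were compared unpaired. The correlations of deviations were -0.06, 0.03 and -0.06 for equal numbers, and -0.04 to 0.10 for unequal ones. With 3 arrays per group these correlations cannot decide whether the mice were paired. Alternatives were other normalizations, offsets and variance models, a filter, a replicate block and arrays left out.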

Additional observations from a re-analysis of the deposited data

How the results depend on the processing

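The count of 0 member probe sets called was the same with quantile normalization, median centring, a trended and robust variance, the replicate block, offsets of 1 and 64 and with each array left out of the unfiltered test. It was 1 when only probe sets above the median level were fitted. In variants chosen after seeing the data, the filtered test gave 1 with median centring and 0 with quantile normalization. With each array left out it gave 0 to 4: 4 without KO replicate 1, 3 without KO replicate 3, 1 without WT replicate 2 and 0 without each of the other 3. The shares of all probe sets called in these variants were not counted. Over all probe sets the count of 4 became 9 with quantile normalization, 11 with median centring, 79 with the filter, 15 with a trended and robust variance, 0 with the replicate block, 1 with an offset of 64 and 1 to 6 with each array left out: 1 without KO replicate 2 and without either of WT replicates 1 and 2, and 2 without KO replicate 3. The median log2 fold change of the 9 genes was -0.41 and ranged from -0.56 to -0.14 with an array left out, and it was -0.22 with an offset of 64 and -0.46 with an offset of 1. Of 301 member values recomputed, 16 changed sign, at 10 dim or little-changed probe sets, and the cause was not tested. With an array left out, Pdgfra 1438946_at ranged from -0.29 to 0.15, Gsn 1436991_x_at from -0.25 to 0.030, 1415812_at from -0.17 to 0.15, 1437171_x_at from -0.27 to 0.062, 1456312_x_at from -0.33 to 0.025, 1456569_x_at from -0.016 to 0.77 and 1456568_at from -0.010 to 0.085. Likewise Dpp4 1438279_at ranged from -0.25 to 0.18 and 1459973_x_at from -0.30 to 0.028, and Pi16 1422026_at from -0.0097 to 1.6e-05. Median centring gave 0.0021 for Gsn 1415812_at and 0.016 for Pi16 1422026_at, and quantile normalization gave 0.0030 for Pi16 1422026_at. All values of Cxcl14, Smoc2, Dpt and Cd34 kept their sign.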

Other observations

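Markers of further cell types of muscle gave these values. Of 4 satellite cell markers, Myf5, a muscle stem cell transcription factor, was higher in every KO array, against 4.51% of all genes. It was dim, at 21.2, 17.1 and 15.9 in KO against 5.2, 5.1 and 6.6 in WT (limma adjusted p = 0.462). KO replicate 3 and all WT arrays were thus below 16. Pax7 and Chodl overlapped and Calcr was below 16 on every array. The sum of these markers was 86.3 to 104.3 in KO and 74.3 to 106.8 in WT. Of 5 macrophage markers, Cd163, a haemoglobin scavenger receptor, was higher in every KO array, against 4.51% of all genes. It read 30.2, 55.6 and 24.8 in KO against 13.7, 10.3 and 11.6 in WT (limma adjusted p = 0.524). Mrc1, the mannose receptor, read 45.6, 53.3 and 19.9 in KO against 103.5, 52.6 and 84.5 in WT, and the markers summed to 176.4 to 344.4 in KO and 232.8 to 352.9 in WT. After median centring Mrc1 was lower in every KO array, against 8.67% of all genes.

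Of 8 pericyte and smooth muscle markers, Acta2, the smooth muscle actin that activated fibroblasts also make, was lower in every KO array, against 8.33% of all genes. At probe set 1416454_s_at it read 340.2, 255.1 and 105.4 in KO against 802.0, 585.0 and 539.2 in WT (2.86-fold lower, limma adjusted p = 0.524). Whether these probes also bind other actin transcripts was not tested. The other 7 markers overlapped as deposited. With median centring or quantile normalization Cspg4 was lower in every KO array, against 8.67% and 10.3% of all genes. Tagln was then higher in every KO array, against 7.28% and 8.82% of all genes. The sum of the 8 markers was 1398.0 to 2015.6 in KO and 1605.3 to 2412.1 in WT. Of 4 Schwann cell markers 2 were measured, Mbp and Sox10, and both overlapped between the groups.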
